A study of Schizosaccharomyces pombe
Saccharomyces cerevisiae with 16 samples.

Results

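The 3 glyceraldehyde-3-phosphate dehydrogenase (GAPDH) genes of budding yeast, TDH1 (YJL052W), TDH2 (YJR009C) and TDH3 (YGR192C), were followed through 16 RNA libraries of strains in which a subunit of Mediator can be degraded. They were picked by gene ID, with earlier results of these data known, from 6859 genes measured in newly synthesized RNA and 6805 genes measured in total RNA. All 3 are in both tables and passed the filter on low counts in both. The choice covered their values in all 8 groups of libraries, so their levels and changes are given as a description, without p-values. Where a member is said to be called, this only names its side of the threshold in the fit over all genes. Where groups are said to overlap or not, this only describes the genes named. The share of all genes without overlap is not given. In the sacCer3 build, TDH1 lies on chromosome X at 338271 to 339269, TDH2 on the same chromosome at 453683 to 454681, and TDH3 on chromosome VII at 882812 to 883810. Each is a protein-coding gene of 999 bases in the files, so counts can be set side by side between the paralogs without a length correction, and 0 other genes of the tables overlap any of them.

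GAPDH carries out the step of glycolysis that oxidises glyceraldehyde-3-phosphate to 1,3-bisphosphoglycerate and makes NADH. Yeast makes the enzyme from paralogous genes. Tdh3 is the main isozyme in cells growing on glucose and its promoter is among the strongest in the genome, Tdh2 is a close relative made in the same cells, and Tdh1 is known as the isozyme of stressed cells and of cells entering stationary phase. Mediator is a large coactivator complex that carries signals from activators at promoters and enhancers to the polymerase that makes mRNA, and both Med14 and Med17 sit in its core.

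Both strains were Saccharomyces cerevisiae of mating type MATalpha and shared the alleles ade2Δ::hisG, his3Δ200, leu2Δ0, lys2Δ0, met15Δ0, trp1Δ63 and ura3Δ0. Both also carried OsTIR1, the rice F-box protein that couples auxin to protein degradation, at the his3 locus behind a promoter labelled pGPD1, together with HIS3. The Med14 strain carried MED14 fused to 3V5 and the degron IAA7, marked with kanMX6, and the Med17 strain is labelled MED17-IAA7. For the Med17 samples the genotype field names the MED14 fusion, and the strain and source fields, which name MED17, were followed. No group without a degron or without OsTIR1 was analysed here. Cells grew in YPD at 30 °C, received 500 µM auxin (indole-3-acetic acid) or its carrier DMSO for 30 min, and were then labelled with 5 mM 4-thiouracil (4tU) for 6 min. They were mixed with Schizosaccharomyces pombe at 1 part to 3 before extraction. Libraries were made from the purified 4tU-labelled RNA, called new RNA here, or from total RNA, which gives 2 strains, 2 treatments, 2 kinds of RNA and 2 replicates in each of the 8 groups. Nothing in the labels says that the replicates were separate cultures, so the spread between them may be technical. The second replicates of new RNA of the Med14 strain, in DMSO and with auxin, carry a further mark in their source names and library numbers apart from the others, and the meaning of the mark is not given.

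Raw totals were 3829864 to 13962332 counts per library for new RNA and 3304205 to 8841065 for total RNA. Values below are the authors' normalized counts, the raw count times 1 constant per library, unless another quantity is named. On that scale the median log2 fold change of all tested genes with auxin was -1.86 in new RNA of the Med14 strain and -2.71 in that of the Med17 strain, and -0.76 and -1.38 in total RNA. TMM and median-of-ratios scaling, which centre the genes, brought these 4 medians to between -0.16 and 0.02, and changes are therefore also given relative to the median gene. In bulk RNA, fewer cells and less RNA per cell cannot be told apart. The labelled mating type was seen in the RNA: in DMSO, 4 genes of MATalpha cells summed to 2839 to 3718 CPM (counts scaled to a fixed library total) in new RNA, against 33.0 to 44.9 for 6 genes of the other mating type.

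TDH3 was the most abundant paralog in all 16 libraries. In DMSO its new RNA stood at 154802 and 132173 normalized counts in the Med14 strain and at 107033 and 106148 in the Med17 strain. It ranked between 1 and 3 among all genes by normalized count per kilobase in the 8 libraries of new RNA, with auxin as well as in DMSO. TDH2 stood at 47310 and 43969 in the Med14 strain and at 31861 and 27052 in the Med17 strain. TDH1, the least abundant paralog, stood at 6144 and 4604 in the Med14 strain and at 5866 and 7275 in the Med17 strain, and it ranked between 290 and 683. The DMSO groups of the 2 strains overlapped for TDH1 and not for TDH2 or TDH3, which were both lower in the Med17 strain. As shares of the summed counts of the 3 genes in the Med14 strain in DMSO, new RNA was 73.7% ± 0.853 TDH3, 23.5% ± 1.14 TDH2 and 2.75% ± 0.285 TDH1 (SD, n = 2). Counts of the 3 genes together made up 1.12% ± 0.136 of that strain's new RNA libraries in DMSO and 2.46% ± 0.0425 of its total RNA libraries.

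**Figure D1:**
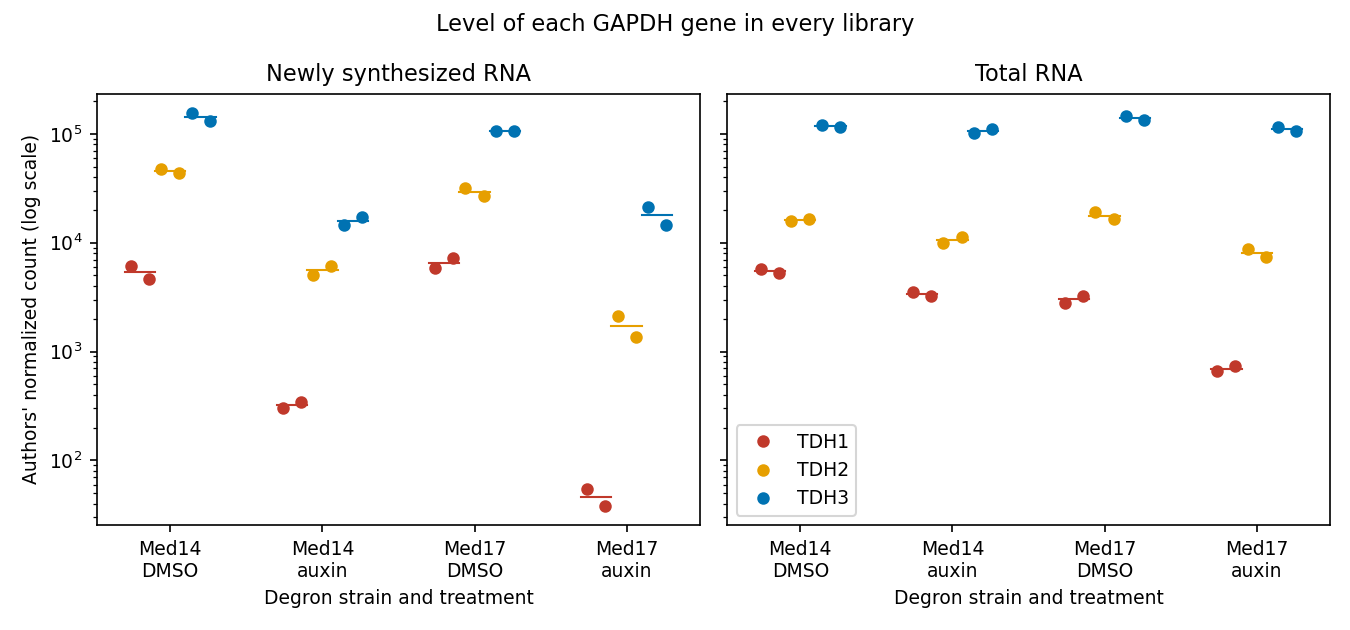
Authors' normalized counts (vertical axis, log scale) of TDH1, TDH2 and TDH3 in each library of new RNA (left) and total RNA (right), by strain and treatment. Points are the 2 replicates of a group and horizontal lines their means; in new RNA of the Med17 strain with auxin TDH1 sits at 54.4 and 38.3, below every other point, while TDH3 sits at 21320 and 14622.

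Auxin in the Med17 strain left very unequal amounts of the 3 new RNAs. TDH1 went to 54.4 and 38.3 normalized counts, which rest on 76 and 65 raw counts with exact Poisson 95% intervals of 59.9 to 95.1 and 50.2 to 82.8. That was 0.706% of its DMSO mean. TDH2 went to 2100 and 1351, or 5.86% of its DMSO mean. TDH3 went to 21320 and 14622, or 16.9%. The auxin values lay below the DMSO values for all 3 genes, without overlap, where 95% of all tested genes were called lower. The remaining share was smallest for the least abundant paralog and largest for the most abundant. As log2 fold changes from edgeR's quasi-likelihood fit, the values were -7.16 (SE 0.233) for TDH1, -4.09 (SE 0.214) for TDH2 and -2.57 (SE 0.197) for TDH3, the last becoming 0.066 with TMM and 0.10 with median-of-ratios scaling. Ordered from the strongest fall among 6072 genes, TDH1 was at position 12, TDH2 at 408 and TDH3 at 3522. Relative to the median gene, TDH1 stood at -4.44 and TDH3 at 0.14 on the log2 scale.

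In the Med14 strain the paralogs stayed closer together. New TDH1 RNA went to 300.6 and 343.5 normalized counts with auxin, or 5.99% of its DMSO mean. TDH2 went to 5072 and 6072, or 12.2%, and TDH3 to 14549 and 17060, or 11.0%. Again no auxin value reached a DMSO value. The log2 fold changes were -4.06 (SE 0.193) for TDH1, -3.03 (SE 0.204) for TDH2 and -3.18 (SE 0.202) for TDH3, and they kept their sign with TMM at -2.20, -1.17 and -1.32. All 3 fell by more than the median gene and stood at -2.20, -1.17 and -1.32 relative to it, at positions 39, 411 and 286 of 6072. The order of TDH2 and TDH3 was thus the reverse of that in the Med17 strain, although their log2 fold changes in the Med14 strain differed by less than either SE. All 3 genes were called lower in either strain, where 94.2% of tested genes were called lower in the Med14 strain and 95% in the Med17 strain at a Benjamini-Hochberg adjusted p under 0.05. Nothing is read from these counts, since the members were chosen with the values known.

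The difference of the 2 changes was fitted as an interaction. The Med14 change minus the Med17 change in new RNA was 3.10 (SE 0.273) for TDH1 and 1.06 (SE 0.268) for TDH2, beside a median of 0.82 over all genes, and 59.6% of genes were called in that direction. TDH1 kept its call with TMM, at 2.32, whereas TDH2 at 0.28 did not. For TDH3 the difference had the opposite sign, -0.61 (SE 0.264), and was not called; it was called with DESeq2 (-0.61), without the low-count filter (-0.61), with the replicate number as a block (-0.59), with TMM (-1.39), and when the second auxin replicate of the Med14 strain (-0.73) or of the Med17 strain (-0.86) was left out.

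Ratios of the paralogs within a library do not depend on how that library was scaled. In new RNA of the Med17 strain there were 5.48 and 6.85 TDH1 counts per 100 TDH3 counts in DMSO, and 0.255 and 0.262 with auxin. The Med14 strain had 3.97 and 3.48 in DMSO, then 2.07 and 2.01 with auxin. The ratio was lower with auxin in each strain, without overlap, with log2 changes of -4.57 (SD of the difference 0.230) in the Med17 strain and -0.87 (SD 0.136) in the Med14 strain. The ratio of TDH2 to TDH3 moved in opposite directions in the strains. The Med17 strain had 29.8 and 25.5 TDH2 counts per 100 TDH3 counts in DMSO, then 9.85 and 9.24 with auxin, a log2 change of -1.53 (SD of the difference 0.171). The Med14 strain had 30.6 and 33.3 in DMSO, then 34.9 and 35.6 with auxin, a small log2 change of 0.14 (SD 0.0891, and 0.068 between the closest libraries). Both auxin values of the Med14 strain lay above both of its DMSO values, and both auxin values of the Med17 strain below, although the smallest exact p that 2 libraries against 2 allow is 0.333 and the ratio was given no test.

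**Figure D2:**
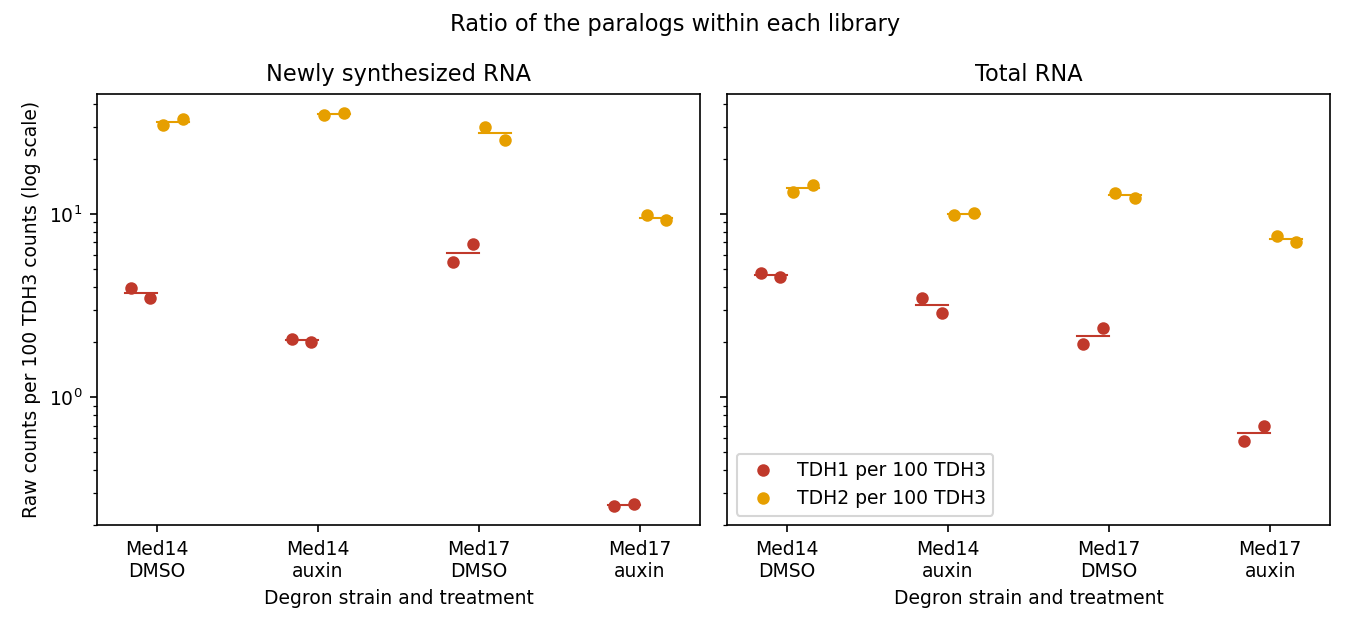
Raw counts of TDH1 and TDH2 per 100 raw counts of TDH3 in the same library (vertical axis, log scale), by strain and treatment, in new RNA (left) and total RNA (right). Points are the 2 replicates of a group and lines their means; TDH1 drops from 6.17 to 0.259 per 100 in new RNA of the Med17 strain, and TDH2 goes from 31.9 to 35.2 in that of the Med14 strain.

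The make-up of the new GAPDH RNA was therefore compared as well. With auxin, TDH3 made up 91.1% ± 0.352 of the 3 genes' counts in the Med17 strain, from 74.8% ± 1.15 in DMSO. The Med14 value was 72.9% ± 0.254, from 73.7% ± 0.853. In that strain TDH1 stood at 1.49% ± 0.0324, from 2.75% ± 0.285, and TDH2 at 25.7% ± 0.286, from 23.5% ± 1.14. None of these 3 shares overlapped between DMSO and auxin. On the authors' scale the summed new RNA of the 3 genes came to similar levels with auxin in both strains. The Med14 strain had 21699 ± 2512 normalized counts (194501 ± 19452 in DMSO). The Med17 strain had 19743 ± 5277 (142617 ± 3029 in DMSO). The auxin groups of the 2 strains overlapped in this sum, at 19923 and 23476 against 23475 and 16012. As a share of library counts they did not, at 0.503% and 0.557% in the Med14 strain against 0.856% and 0.675% in the Med17 strain.

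Near-identical coding sequences can share reads, and the sources used here do not give the counting program or how it treated reads with several matches. Counts of TDH2 and TDH3 relative to each other are therefore uncertain. For TDH1 the data give an approximate bound. In the library where its ratio was lowest, at most 0.255 reads per 100 TDH3 reads can have been moved to TDH1 from TDH3. That value rests on 76 TDH1 counts (exact Poisson 95% interval 59.9 to 95.1). It extends to the other libraries only roughly, and only if that share was alike in all libraries. Whether such reads make up part of the TDH1 count in the Med17 strain with auxin was not tested.

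Total RNA, which holds transcripts made before auxin was added, changed less, and the order of the paralogs was the same in both strains. In the Med14 strain, however, the log2 fold changes of TDH1 and TDH2 differed by less than either SE. TDH1 total RNA went from 2815 and 3202 normalized counts in DMSO to 660.8 and 730.2 with auxin in the Med17 strain, leaving 23.1%. It went from 5725 and 5210 to 3498 and 3207 in the Med14 strain, leaving 61.3%. TDH1 fell by 2.11 (SE 0.125) on the log2 scale in the Med17 strain, where TMM gave -0.90, and by 0.71 (SE 0.119) in the Med14 strain, where TMM gave -0.018 and median-of-ratios scaling 0.035. In the Med17 strain TDH1 was the only paralog that fell by more than the median gene, standing at -0.74 relative to it.

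TDH2 total RNA went from 18931 and 16428 to 8776 and 7437 in the Med17 strain, leaving 45.9%, and from 15747 and 16481 to 9945 and 11226 in the Med14 strain, leaving 65.7%. Its log2 fold changes were -1.12 (SE 0.123) and -0.61 (SE 0.122), and TMM turned them to 0.098 and 0.088. Relative to the median gene TDH2 stood 0.25 higher in the Med17 strain and 0.15 higher in the Med14 strain.

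TDH3 total RNA went from 145060 and 133501 to 115071 and 105280 in the Med17 strain, leaving 79.1%. The values in the Med14 strain were 119578 and 114257 in DMSO and 100939 and 111393 with auxin, leaving 90.8%. Neither pair of groups overlapped, but the gap in the Med14 strain was smaller than the distance between its auxin replicates. TDH3 fell in the Med17 strain by 0.34 (SE 0.105) on the authors' scale and was 0.88 with TMM, and the call was lost without the first DMSO replicate (-0.28) or the second auxin replicate (-0.28). In the Med14 strain the value was -0.14 (SE 0.105), not called, and 0.55 with TMM. Of the 3 genes, 2 were called lower in total RNA of the Med14 strain and 3 in that of the Med17 strain, where 75.1% and 87.4% of tested genes were.

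Within libraries of total RNA, TDH1 stood at 4.67 ± 0.161 counts per 100 TDH3 counts in DMSO against 3.17 ± 0.415 with auxin for the Med14 strain, and at 2.17 ± 0.324 and 0.634 ± 0.0844 in the Med17 strain. TDH2 stood at 13.8 ± 0.887 and 9.97 ± 0.159 per 100 TDH3 counts in the Med14 strain, and at 12.7 ± 0.527 and 7.35 ± 0.398 in the Med17 strain. None of these 4 pairs of groups overlapped, and unlike in new RNA TDH2 was lower relative to TDH3 with auxin in both strains. The ratio of TDH1 to TDH2 in total RNA overlapped between DMSO and auxin in the Med14 strain (log2 change -0.10) and did not in the Med17 strain (-0.99). The 3 genes' share of all total RNA counts was higher with auxin, at 2.70% ± 0.0553 against 2.46% ± 0.0425 in the Med14 strain and at 2.73% ± 0.104 against 2.56% ± 0.0106 in the Med17 strain. Their share of new RNA counts was lower, at 0.530% ± 0.0387 against 1.12% ± 0.136 in the Med14 strain and at 0.765% ± 0.128 against 0.936% ± 0.0125 in the Med17 strain.

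The strains differed in the total RNA changes of TDH1 by 1.41 (SE 0.170), with 0.88 under TMM, beside a median of 0.54 over all genes and 41.3% of genes called in that direction. For TDH2 the difference was 0.52 (SE 0.172), which turned to -0.0098 with TMM and lost its call when any of 5 libraries was left out, with values of 0.40 to 0.55. For TDH3 it was 0.20 (SE 0.148), not called, and -0.33 with TMM.

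A joint fit of the 16 libraries set the change of new RNA against that of total RNA. In the Med14 strain new RNA changed by -3.35 (SE 0.229) relative to total RNA for TDH1, by -2.43 (SE 0.249) for TDH2 and by -3.04 (SE 0.241) for TDH3, where the median gene had -1.05. In the Med17 strain the values were -5.04 (SE 0.252), -2.97 (SE 0.251) and -2.23 (SE 0.239), where the median gene had -1.34. All 6 values were below that of the median gene and stayed negative with TMM, at -0.82 to -3.62. All 3 members were called lower in either strain, as were 79.6% of genes in the Med14 strain and 84.1% in the Med17 strain.

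**Figure D3:**
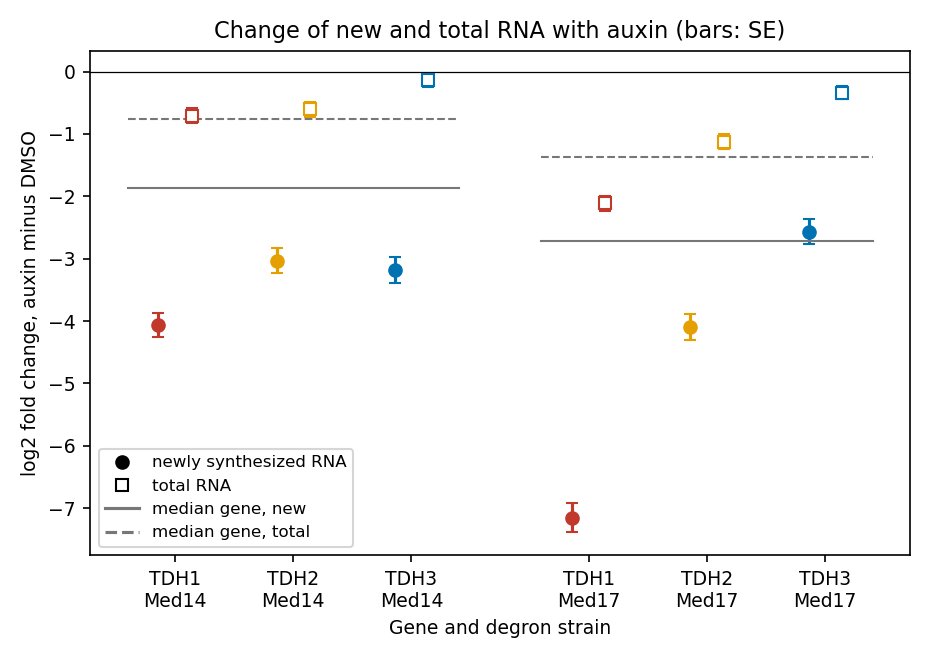
Log2 fold change with auxin against DMSO (vertical axis, authors' scaling) of each GAPDH gene in the Med14 and Med17 strains, for new RNA (filled circles) and total RNA (open squares), with SE bars and the median of all tested genes as solid (new) and dashed (total) lines. TDH1 reaches -7.16 in new RNA of the Med17 strain; with TMM scaling TDH3 turns to 0.066 in new RNA of the Med17 strain, and TDH2 and TDH3 turn positive in total RNA of both strains.

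The 2 tables were normalized separately, so a ratio of a new to a total RNA level has no absolute meaning and only its order between genes is used. In DMSO the log2 ratio of new to total RNA was below that of the median gene for all 3 paralogs in both strains. Relative to the median of 5596 genes it was -2.54 for TDH1, -1.02 for TDH2 and -2.22 for TDH3 in the Med14 strain. The values in the Med17 strain were -1.15, -1.54 and -2.66, so TDH1 was the lowest of the 3 in the former and the highest in the latter.

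The strains also differed in DMSO. TDH1 total RNA was lower in the Med17 strain than in the Med14 strain in DMSO, by 0.86 on the log2 scale (SE 0.119), at position 141 from the lowest of 5625 genes and with -0.93 under TMM. In new RNA the difference was 0.29 (SE 0.169) and not called. The within-library ratio of TDH1 to TDH3 was likewise lower in total RNA of the Med17 strain but higher in its new RNA, at 6.17 ± 0.971 per 100 in the Med17 strain against 3.73 ± 0.343 in the Med14 strain for new RNA, and at 2.17 ± 0.324 against 4.67 ± 0.161 for total RNA. Neither comparison overlapped. TDH2 new RNA was lower in the Med17 strain in DMSO by 0.63 (SE 0.189), a call that was lost without either Med14 DMSO replicate (-0.58 and -0.68) or without the second Med17 DMSO replicate (-0.52). TDH3 new RNA differed by -0.43 (SE 0.186), not called. In total RNA neither TDH2 (0.13, SE 0.121) nor TDH3 (0.25, SE 0.105) was called. In DMSO 24.1% of genes were called lower in the Med17 strain in new RNA and 5.83% in total RNA.

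With auxin, the Med17 strain minus the Med14 strain was -2.81 (SE 0.214) in new TDH1 RNA, -1.69 (SE 0.195) in TDH2 and 0.19 (SE 0.186) in TDH3, the last not called and 1.13 with TMM. Without the first Med17 auxin replicate the TDH3 value was -0.11, and without the second it was 0.43 and called. The median of all genes was -1.004, and 85% of genes were called lower. In total RNA the values were -2.27 (SE 0.125) for TDH1, the 23rd lowest of 5625 genes, and -0.38 (SE 0.122) for TDH2, which was 0.066 with TMM and lost its call without the second auxin replicate of the Med14 strain (-0.29) or of the Med17 strain (-0.27). For TDH3 the value was 0.05 (SE 0.105), not called, and 52.2% of genes were called lower.

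Ordered by group, new TDH1 RNA was highest in the 2 DMSO groups, which overlapped, then lower in the Med14 strain with auxin and lowest in the Med17 strain with auxin, without further overlap. New TDH2 RNA fell in the order Med14 DMSO, Med17 DMSO, Med14 auxin and Med17 auxin, and no neighbours overlapped. New TDH3 RNA was highest in the Med14 strain in DMSO, then in the Med17 strain in DMSO, and the 2 auxin groups overlapped. In total RNA, TDH1 was highest in the Med14 strain in DMSO, followed by the Med14 strain with auxin (3207 to 3498) and the Med17 strain in DMSO (2815 to 3202), which nearly touched, and then by the Med17 strain with auxin. The 2 DMSO groups of total TDH2 RNA overlapped and both auxin groups lay below them, apart from each other. For total TDH3 RNA the Med17 strain in DMSO was highest, and the Med17 auxin group overlapped both groups of the Med14 strain.

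The rest of glycolysis was read from a list of 14 genes for the other steps. In new RNA all 14 were called lower in both strains, as 94.2% and 95% of all genes were, with medians of -3.27 in the Med14 strain and -3.33 in the Med17 strain, beside -1.86 and -2.71 for all genes. With TMM all 14 stayed lower in the Med14 strain, and 10 were called lower and 1 higher in the Med17 strain. In total RNA 10 were called lower in the Med14 strain (median -0.40, beside -0.76 and 75.1% of all genes) and 14 in the Med17 strain (median -0.63, beside -1.38 and 87.4%). In contrast, TMM gave 0 lower and 7 higher in the former and 3 lower and 9 higher in the latter. The list's medians with TMM were 0.29 and 0.59, beside -0.06 and -0.16 for all genes. The shares of all genes called with TMM or median-of-ratios scaling are not given. Such counts are therefore descriptions only, for this list and the later ones. In new RNA the Med14 change minus the Med17 change was called higher for 4 of the 14, beside 59.6% of all genes, and the list's median was 0.03, beside 0.82 for all genes. These 4 were the hexokinase isoenzyme 1 gene YFR053C (2.91, SE 0.276), the enolase gene ENO1 (2.66, SE 0.255), the pyruvate kinase gene YOR347C (1.69, SE 0.226) and the glucokinase gene GLK1 (1.62, SE 0.234), the last of which phosphorylates glucose beside the hexokinases. The other 10 ranged from -0.39 to 0.28 and were not called on the authors' scale, and with TMM all 10 were called lower, as TDH3 was. Among them were the main enolase gene ENO2 (-0.30), the main pyruvate kinase gene CDC19 (-0.39) and the hexokinase gene HXK2 (-0.13).

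**Figure D4:**
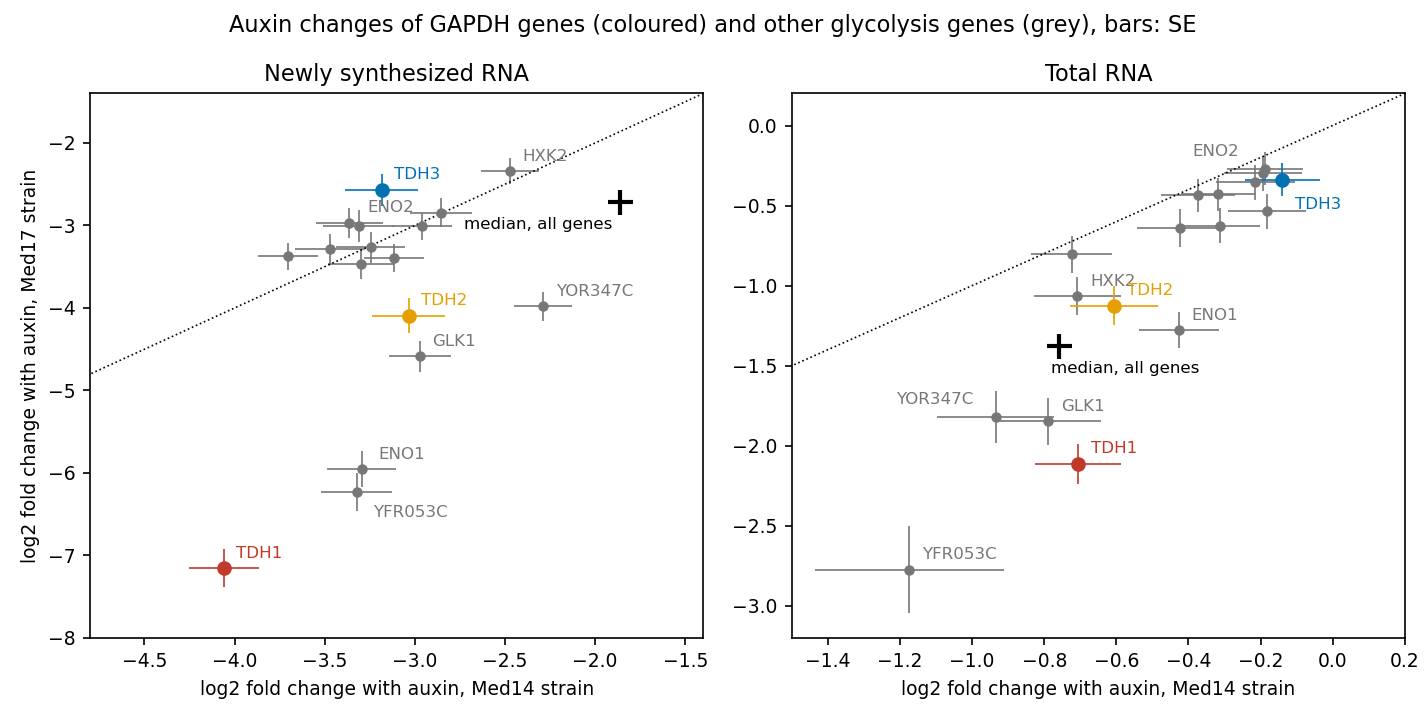
Log2 fold change with auxin in the Med14 strain (horizontal axis) and in the Med17 strain (vertical axis), authors' scaling, of the 3 GAPDH genes (coloured) and 14 other glycolysis genes (grey), in new RNA (left) and total RNA (right); bars are SE, the dotted line marks equal change and the cross the median of all tested genes. TDH1 lies far below the dotted line with YFR053C and ENO1, and TDH3 lies above it in new RNA; with TMM scaling TDH3 turns positive in all but new RNA of the Med14 strain.

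Several steps of the pathway have a major and a minor gene, as GAPDH has. New ENO1 RNA went from 15702 ± 1943 to 254 ± 67.3 normalized counts with auxin in the Med17 strain and from 17846 ± 2401 to 1817 ± 124 in the Med14 strain. The more abundant ENO2 went from 81391 ± 1521 to 10116 ± 2103 and from 102492 ± 18118 to 10318 ± 993. The enolase genes thus changed by -5.95 and -3.01 in the Med17 strain and by -3.30 and -3.31 in the Med14 strain. The hexokinase gene YFR053C changed by -6.23 and its abundant paralog HXK2 by -2.34 in the Med17 strain, where TMM gave HXK2 a positive value of 0.31, and by -3.32 and -2.47 in the Med14 strain. For the pyruvate kinases YOR347C and CDC19 the values were -3.98 and -2.97 in the Med17 strain and -2.29 and -3.36 in the Med14 strain. The range of changes within the GAPDH genes in new RNA of the Med17 strain was 4.59, beside 0.39 to 3.89 in 7 other sets of paralogs (median 1.65). Each of these sets has 2 genes where GAPDH has 3, so the ranges are not like for like. The range in the Med14 strain was 1.03, beside 0.02 to 2.84. The less abundant gene was not always the one that fell most. In 3 of the 7 sets in the Med17 strain and in 5 of the 7 in the Med14 strain it was the more abundant gene. ENO1 and ENO2, counted in the latter, differed by only 0.017, less than their SEs. Another such set was that of the alcohol dehydrogenases ADH1 (-3.24 in the Med17 strain) and ADH2 (-0.98, not called). New ADH2 RNA was near the floor there, at 23.0 ± 0.961 normalized counts in DMSO and 11.9 ± 8.49 with auxin. ADH1 stood at 51222 ± 1650 in DMSO. Enolase, alcohol dehydrogenase and decarboxylase paralogs can share reads too.

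Of 8 genes for transcription factors known to act on glycolytic or stress genes, all 8 were called lower in new RNA in both strains, beside 94.2% and 95% of all genes. Their medians of -1.78 and -2.64 lay close to those of all genes, -1.86 and -2.71. With TMM 2 were lower and 3 higher in the Med14 strain, and 1 was lower and 2 higher in the Med17 strain. GCR1, which encodes the activator of glycolytic genes, changed by -3.34 (SE 0.173) in the Med17 strain and -2.64 (SE 0.167) in the Med14 strain. RAP1, whose product binds the same promoters, changed by -1.89 (SE 0.150) and -1.80 (SE 0.148), which TMM turned to 0.76 and 0.07. YAP1, which encodes an oxidative stress factor, changed by -2.88 (SE 0.139) and -1.12 (SE 0.131), and the latter was 0.75 with TMM.

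Because TDH1 is known as a stress isozyme, 18 general stress genes were set beside it. In new RNA of the Med17 strain all 18 were called lower (median -4.55, beside -2.71 and 95% of all genes), and 15 stayed lower with TMM. For the Med14 strain 17 were called lower and 1 higher (median -2.80, beside -1.86 and 94.2% called lower), and with TMM 12 were lower and 1 higher. The gene that rose in the Med14 strain, the small heat shock protein gene YBR072W, went from 672 ± 0.728 to 1219 ± 257 normalized counts there and from 828 ± 324 to 69.7 ± 2.34 in the Med17 strain. The membrane stress protein gene HSP12 changed by -4.34 in the Med14 strain and -4.03 in the Med17 strain, the catalase gene CTT1 by -2.27 and -2.51 (the latter 0.12 with TMM), and the trehalose phosphatase gene TPS2 by -2.04 and -4.08. New HSP12 RNA stood at 795 ± 107 normalized counts in DMSO in the Med14 strain and at 84.5 ± 55.1 in the Med17 strain. With auxin it stood at 38.9 ± 10.5 and 5.35 ± 2.56, so its change in the Med17 strain rests on low counts. The Med14 change minus the Med17 change was called higher for 15 of the 18 genes (median 1.83; 12 with TMM), beside 59.6% of all genes and their median of 0.82, with TDH1 at 3.10. In total RNA that difference was called higher for 12 of the 18 (median 1.09; 5 with TMM), beside 41.3% of all genes and their median of 0.54, with TDH1 at 1.41. The list already differed between the strains in DMSO, and its genes went both ways. In new RNA 4 of the 18 were called lower in the Med17 strain, beside 24.1% of all genes, 7 were called higher and 7 were not called. The share of all genes called higher is not given. The Med17 strain minus the Med14 strain had a median of 0.33 for the list, beside -0.21 for all genes. The list includes GLK1 and YFR053C, which are also on the glycolysis list.

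The genes whose pattern was most like that of each paralog were named by Pearson's r over the 16 libraries, on log2 normalized counts centred within each kind of RNA. The libraries fall into DMSO and auxin groups and share their scaling, so r was high for most genes, with medians over 5596 genes of 0.930 for TDH1, 0.940 for TDH2 and 0.838 for TDH3. Nearest to TDH1 were the glutamate decarboxylase gene YMR250W (r = 0.994), YMR196W (0.991), the origin recognition subunit gene YPR162C (0.987), ENO1 (0.987) and the vacuolar protein gene ATG22 (0.985). Pearson's r does not compare the size of a change: YPR162C and ATG22 changed by -2.64 and -2.54 in new RNA of the Med17 strain, against -7.16 for TDH1. Their root mean square differences from TDH1, 1.40 and 1.46, were no smaller than the 1.39 of the median gene, while ENO1 had 0.522 and YMR250W 0.633. Nearest to TDH2 were YPR063C and the aldehyde reductase gene YGL157W (both 0.997), then YLR351C, YKL160W and RVB1 (each 0.996). RVB1 had a root mean square difference of 0.636 from TDH2, above the 0.605 of the median gene, and the others had 0.314 to 0.479. Nearest to TDH3 were ENO2 (0.997), the transketolase gene YPR074C (0.995), the glucanosyltransferase gene YOL030W (0.992), the actin gene ACT1 (0.992) and the pyruvate carboxylase gene YBR218C (0.991). Each paralog was thus nearest to different genes, and among themselves TDH1 and TDH2 had an r of 0.960, TDH2 and TDH3 of 0.922, and TDH1 and TDH3 of 0.863. By root mean square difference the closest pair was instead TDH2 and TDH3 (0.592), followed by TDH1 and TDH2 (0.987) and TDH1 and TDH3 (1.44). The median gene stood at 0.605 from TDH2 and 0.610 from TDH3, so this closest pair was hardly closer than that. TDH1 and TDH3 were further apart than TDH1 and its median gene (1.39).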

How the data were processed

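The submitters' processing notes name bcl2fastq 2.17.1.14 and the build sacCer3, and the sources used here do not give the aligner, counting program or strand setting. Per the file headers, the deposited values are raw counts of reads per gene. They also hold the authors' normalized counts, a signal that came out as the raw count multiplied by 1 constant per library, and the origin of that constant is not stated. Gene names come from the files, which name 2228 and 2221 genes, and other genes are given by ID.

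Raw counts were fitted on all genes with edgeR 4.0.16 (quasi-likelihood, R 4.3.3) over the 8 libraries of new or of total RNA, with the authors' constants as scaling factors and the filterByExpr filter. Calls were made at 0.05 after Benjamini-Hochberg adjustment over all tested genes. A joint fit of 16 libraries compared new with total RNA. The separate fits of new and total RNA were also run on simulated counts in which a small part of the genes changed, as many up as down. In the data most genes fell with auxin, so these simulated counts do not cover that setting. SDs rest on n = 2 per group. Each SE is the absolute log2 fold change divided by the square root of its quasi-likelihood F. Its spread was estimated over all libraries of the fit, with 2 libraries per group. Poisson intervals cover counting error only.

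The members and lists were chosen with earlier results of these data known. By rule, the text named the members, the 5 most similar genes of each, list genes on which a result turns, and HSP12, CTT1, TPS2 and YBR072W from the stress list. Alternatives were TMM and median-of-ratios scaling, DESeq2 1.42.0, no filter, a replicate block, leaving out each library, a pseudocount of 1 on ratios, and another measure of likeness.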

Additional observations from a re-analysis of the deposited data

Results flagged for a closer look

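The interaction term of the edgeR fit over all genes passed its threshold for TDH1 and TDH2, which is given as a description, since the members had been chosen with these values known. The Med14 change minus the Med17 change was 3.10 for TDH1 and 1.06 for TDH2 in new RNA, and 1.41 for TDH1 and 0.52 for TDH2 in total RNA, all on the log2 scale. The median over all genes was 0.82 in new RNA and 0.54 in total RNA, and TDH2 lay close to it in both.

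The log2 ratio of TDH2 to TDH3 in new RNA moved in opposite directions in the strains, by 0.14 with auxin in the Med14 strain and by -1.53 in the Med17 strain, with every library of a group on the same side. The Med14 change was small, with an SD of the difference of 0.0891. The difference between these changes of the ratio was not tested.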

How the results depend on the processing

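Scaling changed more results than the other alternatives, since TMM and median-of-ratios factors bring the median gene near 0 where the authors' constants do not. Under TMM the TDH3 change in new RNA of the Med17 strain was 0.066 (median-of-ratios 0.10). The total RNA changes in the Med14 strain were -0.018, 0.088 and 0.55 for TDH1, TDH2 and TDH3 (0.035, 0.14 and 0.61), and those of TDH2 and TDH3 in the Med17 strain 0.098 and 0.88 (0.22 and 1.00). The Med14 change minus the Med17 change was 0.28 for TDH2 and -1.39 for TDH3 in new RNA (0.23 and -1.44), and -0.0098 and -0.33 in total RNA (-0.077 and -0.40). The Med17 strain minus the Med14 strain with auxin was 1.13 for TDH3 in new RNA (1.20), and 0.066 for TDH2 and 0.51 for TDH3 in total RNA (0.13 and 0.57), and for new TDH1 RNA in DMSO median-of-ratios gave 0.48, which was called. Called glycolysis genes under TMM numbered 0 lower and 7 higher in total RNA of the Med14 strain (0 and 7), 3 lower and 9 higher in that of the Med17 strain (3 and 10), and 1 higher in new RNA of the Med17 strain (1). The within-library ratios do not depend on scaling, and a pseudocount of 1 left all 8 of their changes within the replicate spread.

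The TDH3 strain difference in new RNA, not called on the authors' scale, was called with DESeq2 (-0.61), without a filter (-0.61) and with a replicate block (-0.59); the other 35 values kept their side of the threshold in each of these fits. Replicate differences of the compared DMSO and auxin groups correlated at 0.36, 0.12, 0.11 and 0.17 across 5596 genes, and those of new and total RNA of the same group at 0.39, 0.19, 0.48 and 0.021. The labels do not say what a number marks, and 2 replicates a group do not settle whether it pairs the libraries. Leaving out each library, values that changed a call or sign ranged from -0.86 to -0.32 for that difference, -0.75 to -0.52 for new TDH2 RNA between strains in DMSO, -0.11 to 0.43 for new TDH3 RNA between strains with auxin, -0.40 to -0.28 for total TDH3 RNA in the Med17 strain, 0.40 to 0.64 for the TDH2 strain difference in total RNA, and, between strains with auxin in total RNA, -0.51 to -0.27 for TDH2 and -0.016 to 0.13 for TDH3. By root mean square difference, 2, 0 and 3 of the 5 genes nearest to TDH1, TDH2 and TDH3 were shared with those named. The share of each gene unique in the genome was not computed here, and counts of 65 and 76 limit TDH1 in the Med17 strain with auxin.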
